A study of Mus musculus with 24 samples.

Results

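The immunity-related GTPases (IRG) of mouse CD4+ T cells were followed through activation and skewing. Their 7 genes, Iigp1, Ifi47, Tgtp1, Tgtp2, Irgm1, Irgm2 and Igtp, were chosen by name as members of this interferon-γ (IFN-γ)-induced family. They are 7 of the 22009 named entries of the deposited table, and all 7 passed the filter on low values. CD4+ T cells were purified from pooled spleens of wildtype adult C57BL/6 mice by negative selection and were sequenced as 2 libraries of resting cells and as cultures in Th0, Th1 and Th2 conditions, taken at 4, 8, 12, 16, 20 and 24 h. All cultures had plate-bound anti-CD3 and soluble anti-CD28, and in Th0 nothing was added. Th1 medium contained IL-12 and an antibody to IL-4. Th2 medium contained IL-4 and antibodies to IL-12 and to IFN-γ. Each combination of time point and condition was sequenced once. A further 4 libraries followed RNA for 0, 1, 2 or 4 h under actinomycin, an inhibitor of transcription, added after 16 h of stimulation of cells whose skewing condition is not given.

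IRG proteins are large GTPases that cells make in response to IFN-γ, and they act against bacteria and protozoa that live in vacuoles. The effector members, which include Iigp1 (Irga6), Tgtp (Irgb6) and Ifi47 (Irgd), load onto the vacuole membrane and break it. The regulatory members, Irgm1, Irgm2 and Igtp (Irgm3), sit on the cell's own membranes and hold the effectors inactive there, and loss of Irgm1 is known to make IFN-γ harmful to activated CD4+ T cells. IFN-γ signals through its receptor and the kinases JAK1 and JAK2, acts on promoters with GAS elements and raises the factor IRF1. IRF1 and related factors bind ISRE elements.

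Of the 7 genes, 6 lie on mouse chromosome 11. On build GRCm38, Irgm1 (chr11:48861968-48871683), Tgtp1 (chr11:48985327-48994172), Tgtp2 (chr11:49057194-49064206) and Ifi47 (chr11:49076587-49096974) form one stretch. Igtp (chr11:58199556-58207591) and Irgm2 (chr11:58199618-58222782) overlap, since an annotated Irgm2 transcript starts in the first exon of Igtp. The 120 bases before the start annotated by RefSeq are given for the 6 genes on chromosome 11 (RefSeq, GRCm38.p6, 5′ to 3′ in the direction of the gene), because the 2 kinds of IFN-γ-related element can be read in them. Capitals mark each match to the GAS letters TTCNNNGAA or to the ISRE core letters GAAANNGAAA, searched on both strands over 250 bases before and 50 after the start. The RefSeq starts of Irgm1, Irgm2 and Tgtp1 lie inside the spans above, which cover all GENCODE transcripts of a gene, so other transcripts of these genes start outside the windows shown.
Igtp (chr11:58199436-58199555, plus strand): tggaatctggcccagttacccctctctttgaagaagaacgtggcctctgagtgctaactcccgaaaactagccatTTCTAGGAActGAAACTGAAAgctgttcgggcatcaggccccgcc
Irgm2 (chr11:58214857-58214976, plus strand): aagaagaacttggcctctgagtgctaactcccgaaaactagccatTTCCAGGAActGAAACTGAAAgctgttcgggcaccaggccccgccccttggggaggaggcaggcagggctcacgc
Irgm1 (chr11:48871421-48871540, minus strand): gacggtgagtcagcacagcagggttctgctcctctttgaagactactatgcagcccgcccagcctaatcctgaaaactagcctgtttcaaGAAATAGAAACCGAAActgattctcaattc
Tgtp1 (chr11:48992247-48992366, minus strand): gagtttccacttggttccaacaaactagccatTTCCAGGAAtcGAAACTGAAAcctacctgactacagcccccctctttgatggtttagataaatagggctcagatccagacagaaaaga
Tgtp2 (chr11:49064213-49064332, minus strand): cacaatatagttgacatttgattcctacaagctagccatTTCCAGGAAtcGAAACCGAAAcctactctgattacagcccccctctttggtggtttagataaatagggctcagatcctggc
Ifi47 (chr11:49076467-49076586, plus strand): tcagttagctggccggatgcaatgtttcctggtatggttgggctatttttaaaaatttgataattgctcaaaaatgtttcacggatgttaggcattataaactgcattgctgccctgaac

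Igtp, Irgm2, Tgtp1 and Tgtp2 each held 1 GAS match followed, 2 bases later, by 1 ISRE core match. Of 32851 mouse promoters of the same length, 8.3% held a GAS match, 3.44% an ISRE core match and 5 (0.0152%) this pair at this spacing. These 5 were the 4 members and Gm12185, another IRG gene. The spacing counted was that of the members' own windows, so its rarity is a description and not a test. The 4 windows are related copies: over 34 bases around the pair, Igtp and Irgm2 were identical at 33 and Tgtp1 and Tgtp2 at 32, whereas Tgtp2 and Igtp were identical at 27. Irgm1 held no GAS match and 2 overlapping ISRE core matches, 30 and 24 bases before the start. The Ifi47 window held neither set of letters. Annotated Ifi47 transcripts also start further downstream, outside this window. A match is a description of letters and not of binding.

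Expression is given as RPKM, reads scaled to the length of the transcript and to the mapped reads of the library, which allows levels of different genes to be compared. The libraries held 17512385 to 33017133 mapped reads, and the members had 165 to 20821 mapped reads per kilobase in a library. Tgtp1 and Tgtp2 could not be well told apart: 79.4% of the 50-base windows of Tgtp1 transcripts also occur in Tgtp2, and 85.8% of those of Tgtp2 in Tgtp1. Of the windows of Igtp, 11.8% occur in another gene, and the share was 7.77% for Irgm2, 2.54% for Ifi47, 1.69% for Iigp1 and 0.31% for Irgm1. How the authors divided shared reads is not given in the sources used here. The CD4+ label was checked against 6 T cell markers (Cd3e, Cd3g, Cd3d, Cd4, Lck and Cd28), which summed to 1706 and 1718 RPKM in resting cells and to 1039 to 1215 in the cultures, with none at 0. Markers of monocytes and macrophages summed to 573 and 594 RPKM over 10 genes in resting cells, against 48.4 to 80.4 in the 4 h cultures and 9.06 to 13.3 at 24 h. Red cell markers, mostly haemoglobin, summed to 38837 and 42382 RPKM in resting cells. At 4 h they summed to 34240 in Th0, 29387 in Th1 and 47109 in Th2, and at 24 h to 142 to 212. Resting and cultured libraries have different tags in their titles, and preparation and activation cannot be told apart.

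All 7 genes, Iigp1 on chromosome 18 included, were already expressed in resting cells. Ifi47 was the highest, with 117.3 and 118 RPKM, and Igtp came next with 80.1 and 86.1. Tgtp1 had 63.2 and 68.0 RPKM, Irgm1 57.6 and 58.6 and Tgtp2 54.8 and 59.9, so that the ranges of Irgm1 and Tgtp2 overlapped. Irgm2, with 18.01 and 17.6, and Iigp1, with 16.4 and 15.2, were the lowest. The spread between both libraries was small beside these differences in level, with an SD of 0.295 RPKM around a mean of 17.8 for Irgm2 and of 4.25 around 83.1 for Igtp (n = 2).

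Th0 and Th1 cultures had higher levels of the whole family than resting cells, as did Th2 cultures at 4 h. At 4 h, Th0 and Th1 libraries were between 5.64 and 17.0 times the resting mean for each member. The Th2 library was between 2.03 and 4.39 times that mean. The effector Iigp1, low at rest, had 210.0 RPKM in Th0, and its Th1 and Th2 libraries had 269 and 66.1. Igtp, a regulator, had 854 RPKM in the Th0 library, 933 in the Th1 library and 229 in the Th2 library, and it was the highest member in all Th0 and Th1 libraries. In Th1 cultures each member had its highest value at 4 h. In Th0 cultures, Iigp1, Ifi47 and Tgtp2 were higher still at 8 h, with 316, 727 and 567 RPKM.

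**Figure D1:**
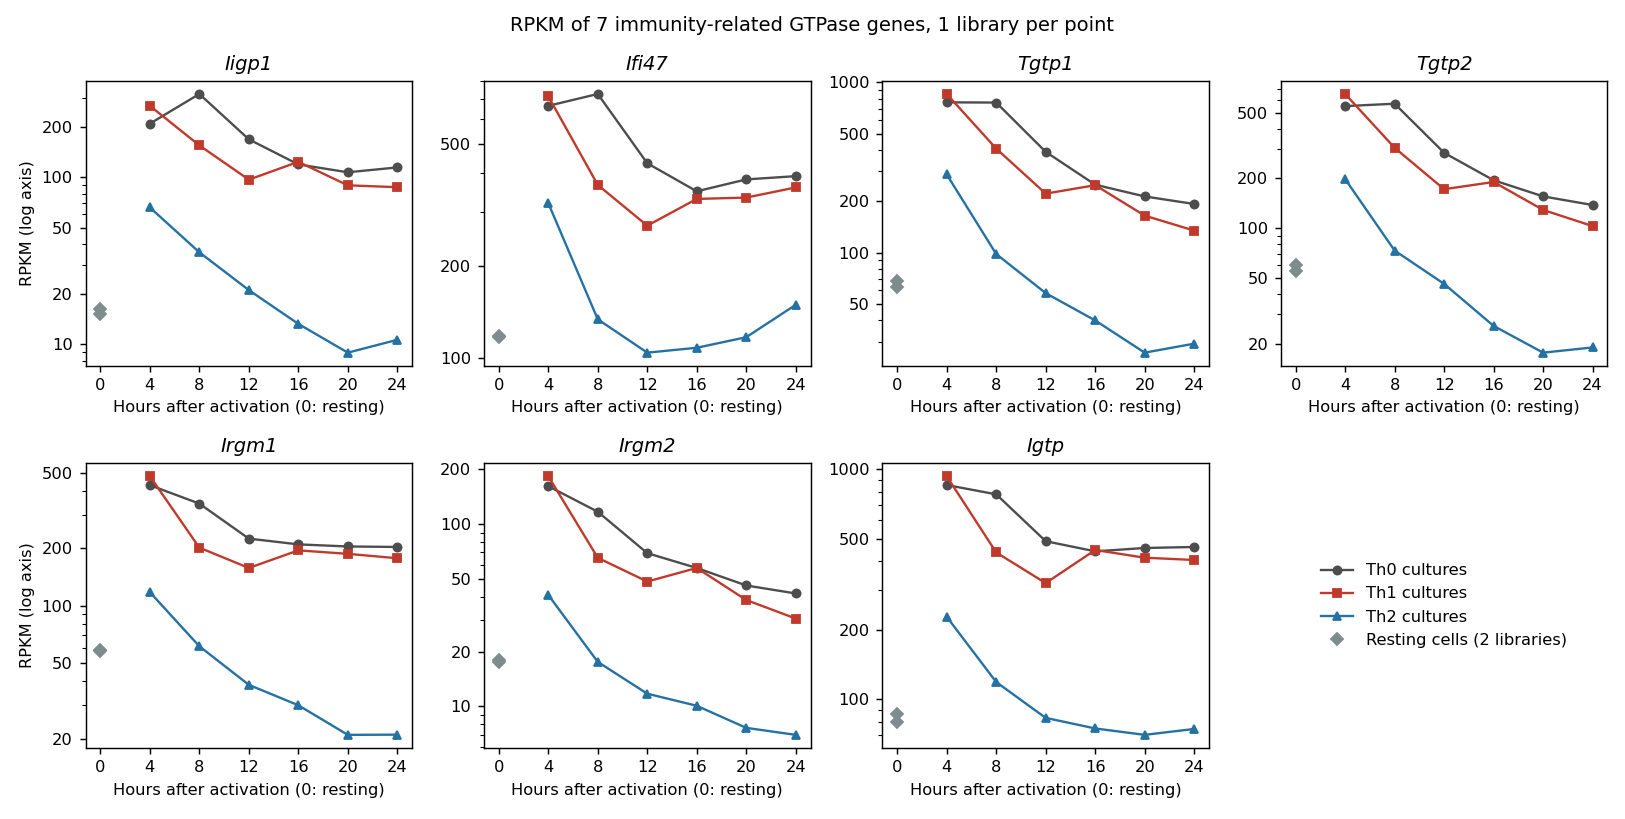
RPKM (log axis) of each of the 7 genes against hours after activation, with 1 library per point: grey diamonds at 0 are the 2 resting libraries, dark circles Th0, red squares Th1 and blue triangles Th2. In all 7 panels the Th2 line lies under both others at every time point, and Ifi47 has its lowest Th2 value at 12 h, with 104 RPKM, and 149 at 24 h, whereas the other 6 are lowest at 20 or 24 h.

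In the fit over the time course, resting cells were compared with the 6 cultures of each condition by limma on log2(RPKM + 0.5), and a gene was called at an adjusted p under 0.05 with at least a 2-fold difference. Time was not a factor in this fit, so the change from 4 to 24 h within a condition is part of the spread. All 7 members were called higher in Th0 cultures than at rest, where 3.7% of the 10897 genes tested were called higher. The differences ran from 2.00 ± 0.38 (SE) for Ifi47 to 3.30 ± 0.59 for Iigp1 on the log2 scale, with a median of 2.22 against -0.01 over all genes. In Th1 cultures 6 members were called higher (6.38% of all genes), with a median of 1.88 over the 7. Tgtp2 missed the threshold with 1.87 ± 0.79 and an adjusted p of 0.0723 by limma. With only 12 to 24 h in the fit, Tgtp2 was called, with 1.33 ± 0.36 and an adjusted p of 0.00546. In that fit 1257 of all genes were called higher, against 695 in the main fit. In Th2 cultures none was called in either direction, where 24.4% of all genes were called in one or the other, and the values ran from -0.56 ± 0.52 for Irgm1 to 0.34 ± 0.59 for Iigp1. At an unadjusted p under 0.05 by limma, none of the 7 passed.

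The calls against rest depended on both resting libraries. With either one left out, only Iigp1, Ifi47 and Igtp kept their calls in Th0 and in Th1 cultures. Fewer of all genes were called higher in these fits as well, so the loss of calls was not particular to the members. The fold changes moved little, and Tgtp1 in Th0, for instance, was 2.42 without resting library 1 and 2.52 without resting library 2, with adjusted p values of 0.176 and 0.156. Quantile scaling moved the median of all genes by 0.11 to 0.17 in the comparisons with rest and raised the share of higher calls among all calls, from 28.7% to 48.4% for Th0, from 36.0% to 52.7% for Th1, from 38.7% to 52.7% for Th2, from 24.7% to 43.5% at 4 h and from 42.3% to 54.0% at 24 h. The sum of macrophage markers was lower than at rest in every culture at 4 and 24 h. The red cell sum at 4 h was below both resting libraries in Th0 and Th1 and above them in Th2, and at 24 h it was far below them in all 3 conditions. The part of either in these differences was not tested.

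Taking the 3 conditions at a time point together, 4 h was compared with rest. All 7 estimates were positive, from 2.18 ± 0.74 for Ifi47 to 3.26 ± 1.29 for Iigp1, but only Ifi47 (adjusted p = 0.032) and Tgtp1 (3.12 ± 1.10, adjusted p = 0.0394) were called higher, where 2.61% of all genes were. The other 5 had adjusted p values from 0.0598 to 0.149. The lower Th2 values are part of the spread in this fit: with the Th2 cultures left out, or with the skewing condition as a factor, a setting chosen after seeing the data, all 7 were called at 4 h. With 1 resting library, the Th0 cultures or the Th1 cultures left out, none was. At 24 h the estimates ran from 0.18 ± 1.14 for Tgtp2 to 1.57 ± 1.29 for Iigp1 and none was called by limma (0 at an unadjusted p under 0.05), where 12.7% of all genes were called higher. With the Th2 cultures left out, 6 were called at 24 h, the exception being Irgm2. In that fit 1368 of all genes were called higher, against 1389 in the main fit. At 4 h, 350 of all genes were called higher with the Th2 cultures left out and 346 with condition as a factor, against 284 in the main fit.

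Th2 cultures held less RNA of every member than Th0 cultures. This comparison asks what skewing with IL-4, anti-IL-12 and anti-IFN-γ does to the family. Igtp had at least 439.8 RPKM in Th0, whereas its Th2 values were 229, 119, 83.1, 74.8, 70.1 and 74.4 at 4, 8, 12, 16, 20 and 24 h. Irgm1 had 431, 344, 225, 210.2, 205 and 204 RPKM in Th0 and 118, 61.2, 38.4, 30.0, 20.9 and 20.99 in Th2. For these genes and for Iigp1, Irgm2 and Ifi47, 5 of the 7, every Th2 value lay under every Th0 value, as it did for 0.941% of all genes tested.

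Iigp1 showed the widest difference. Its Th0 values had a lowest, median and highest of 107, 144 and 316 RPKM, and its Th2 values of 8.92, 17.2 and 66.1. The ratio of Th0 to Th2 was 3.18 at 4 h, 8.88 at 8 h and 12.0 at 20 h. Tgtp1 (193, 321 and 764 RPKM in Th0, 25.8, 48.9 and 288 in Th2) and Tgtp2 (138, 240.3 and 567 in Th0, 17.6, 35.8 and 198 in Th2) overlapped between conditions through the 4 h Th2 library alone. Irgm2 was the lowest member in 22 of the 24 libraries, with 41.7, 63.5 and 162 RPKM in Th0 and 6.99, 10.9 and 40.9 in Th2.

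Ifi47 differed least. It had 350, 412 and 727 RPKM in Th0 and 104, 125 and 320 in Th2, and the ratio of Th0 to Th2 was 2.08 at 4 h, 5.44 at 8 h and 2.63 at 24 h. In the 6 Th2 libraries Ifi47 was the highest member, as it was at rest, whereas Igtp was the highest in all 12 Th0 and Th1 libraries. The ratio of Ifi47 to Igtp was 1.46 and 1.37 at rest, 0.78 in Th0 at 4 h and 2.00 in Th2 at 24 h.

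With the time point as a factor, all 7 members were called lower in Th2 than in Th0, where 1.83% of the 10737 genes tested were called lower. The differences on the log2 scale were -2.96 ± 0.20 (SE) for Iigp1, -2.70 ± 0.17 for Irgm1, -2.65 ± 0.17 for Tgtp2, -2.58 ± 0.17 for Tgtp1, -2.50 ± 0.12 for Igtp, -2.44 ± 0.11 for Irgm2 and -1.72 ± 0.13 for Ifi47. As a fold, this was 7.80 for Iigp1 and 3.30 for Ifi47. Adjusted p values by limma ran from 5.78e-10 to 2.68e-07, and the median difference was -2.58 against 0.00 over all genes. Each member was lower in Th2 at 6 of 6 time points, as were 14.6% of all genes tested. The 18 cultures came from 1 pool of cells, and each time point and condition was sequenced once. The time points stand in as replicates, so these p values measure how evenly the difference held over the 6 time points. They do not measure the spread between replicate cultures or between animals.

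Against Th1 cultures the Th2 cultures were lower as well. All 7 members were called lower (1.39% of all genes were), from -2.62 ± 0.20 for Iigp1 through -2.23 ± 0.12 for Igtp to -1.40 ± 0.13 for Ifi47, with a median of -2.23 against 0.02 over all genes and adjusted p values from 4.64e-09 to 2.68e-06. Each was lower at 6 of 6 time points, as were 10.8% of all genes. Both comparisons share the Th2 libraries. No alternative setting ended any of the 7 calls against Th0, and in the comparison with Th1 leaving out the time factor ended those of Tgtp1 (adjusted p = 0.0749) and Tgtp2 (adjusted p = 0.0544).

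**Figure D2:**
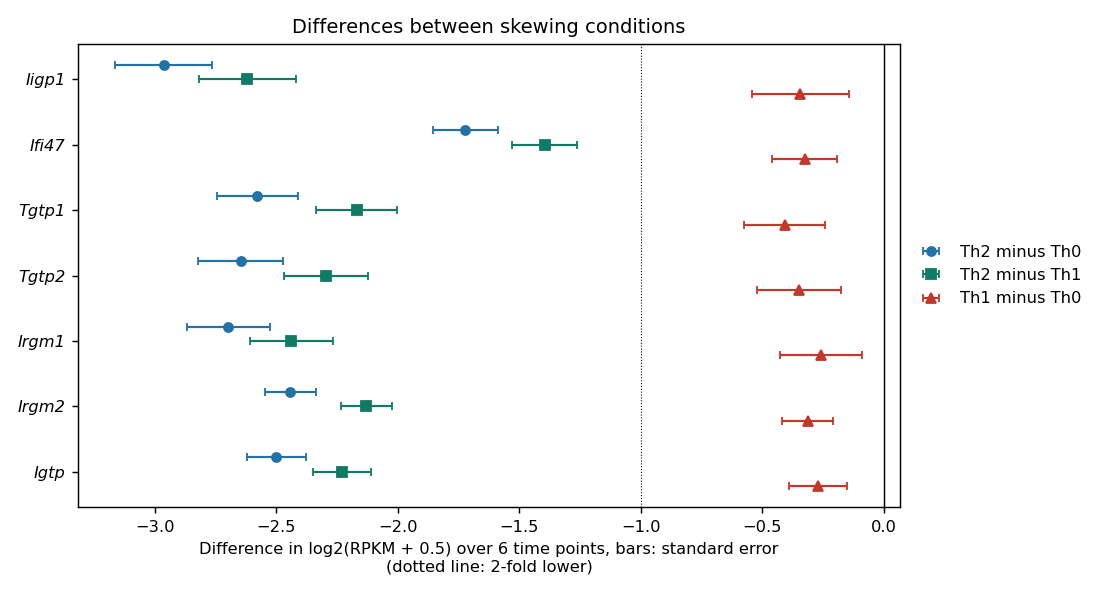
Difference in log2(RPKM + 0.5) between conditions for each of the 7 genes, fitted by limma over 6 time points, with bars for the standard error; blue circles are Th2 minus Th0, green squares Th2 minus Th1 and red triangles Th1 minus Th0. All Th2 differences lie left of the dotted line at 2-fold lower, with Ifi47 nearest to it, and the Th1 minus Th0 differences lie between -0.41 and -0.26.

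Th1 cultures, which received IL-12 and made more Ifng RNA, did not hold more IRG RNA than Th0 cultures over the whole course. None of the 7 was called in either direction, where 0.317% of all genes were called lower in Th1. The estimates were all below 0, from -0.41 ± 0.17 for Tgtp1 to -0.26 ± 0.17 for Irgm1, with adjusted p values from 0.155 to 0.469. At an unadjusted p under 0.05 by limma, 4 of the 7 passed. The share of all genes at this threshold was not counted, so no conclusion is drawn from this count.

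Within the course the ratio of Th1 to Th0 was not even. At 4 h all 7 were higher in Th1, by 1.07-fold (Ifi47) to 1.28-fold (Iigp1). At 8 h all 7 were lower in Th1 by at least 1.5-fold, as were 9.97% of all genes tested, with ratios of Th0 to Th1 from 1.70 for Irgm1 to 2.03 for Iigp1. At 12 h all 7 were still lower in Th1, by 1.43-fold to 1.76-fold. At 16 h the ratios of Th1 to Th0 were between 0.93 and 1.04, and at 20 and 24 h all 7 were again lower in Th1. With 1 library per condition at a time point, none of these single ratios has a replicate check. A share of all genes was counted at 8 h alone, so the counts at the other hours are descriptions.

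In Th2 cultures the family was above the resting level at first and mostly under it later. At 4 h all 7 members were at least 2-fold over the resting mean, as were 5.49% of all genes tested, with 4.39-fold for Tgtp1, 4.19-fold for Iigp1 and 2.03-fold for Irgm1. At 16 h all 7 were under the resting mean. At 24 h 6 members were under both resting libraries, a position shared by 49.7% of all genes. Tgtp2 was then 3.03-fold under the resting mean, Irgm1 2.77-fold, Irgm2 2.55-fold, Tgtp1 2.25-fold, Iigp1 1.48-fold and Igtp 1.12-fold. Ifi47 was the exception, with 149 RPKM against 117.3 and 118 at rest. With only the cultures from 12 to 24 h in the fit, Irgm1 (-1.11, adjusted p = 0.000162) and Tgtp2 (-1.18, adjusted p = 0.0101) were called lower in Th2 than at rest, and Iigp1 (-0.29) and Igtp (-0.14) turned from above to below 0. In that fit 3406 of all genes were called, 1969 of them lower, so a call there is common and not particular to the family.

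**Figure D3:**
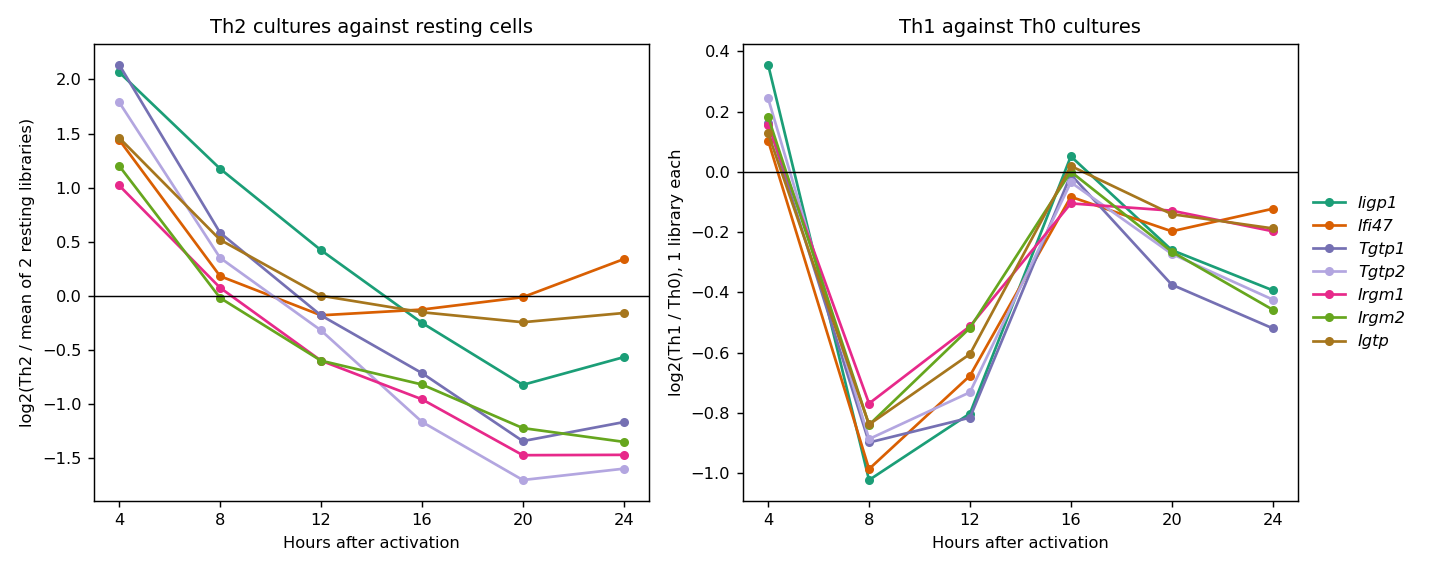
Left, log2 ratio of each Th2 library to the mean of the 2 resting libraries against hours after activation; right, log2 ratio of the Th1 to the Th0 library at the same hour, 1 line per gene and 1 library per condition and point. On the left all 7 lines start above 0 and lie below it at 16 h, and on the right all 7 lie above 0 at 4 h and lowest at 8 h.

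The change from 4 to 24 h differed in size among the members. In Th2 cultures the 4 h value was 10.5 times the 24 h value for Tgtp2, 9.87 times for Tgtp1, 6.2 times for Iigp1, 5.86 times for Irgm2, 5.61 times for Irgm1, 3.07 times for Igtp and 2.15 times for Ifi47. In Th0 cultures the same ratio was between 1.70 for Ifi47 and 3.97 for Tgtp2. In Th1 cultures it was between 1.98 for Ifi47 and 6.35 for Tgtp1, and for Irgm2 it was 6.04, above its Th2 value. A straight line per condition was fitted to log2(RPKM + 0.5), and the slopes were compared. Irgm1 was the only member called lower in Th2 than in Th0, with a difference in slope of -0.068 ± 0.015 (SE) per h and an adjusted p of 0.0198, where 3.21% of all genes were called lower. Iigp1 had a difference of -0.070 ± 0.022 per h and an adjusted p of 0.0784, and Ifi47 of 0.006 ± 0.020.

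Against Th1, Irgm1 again was the only member called lower in slope, with -0.072 ± 0.015 per h and an adjusted p of 0.0318 (0.689% of all genes). For this comparison, quantile scaling moved the share of higher calls among all calls from 27.5% to 39.6%. No member was called in slope between Th1 and Th0 by limma (0 at an unadjusted p under 0.05), where 0.0279% of all genes were called, and the differences were between -0.007 and 0.013 per h. The time courses are not straight, and the calls rested on single time points: for Irgm1 against Th0 the adjusted p was 0.0954 without 20 h and 0.0807 without 24 h, and against Th1 it was 0.0748 without 12 h, 0.0904 without 16 h, 0.176 without 20 h and 0.188 without 24 h. Without 4 h, Ifi47 was called higher in slope in Th2 than in Th0 (0.061 per h, adjusted p = 0.00505). In that fit 782 of all genes were called higher, against 77 in the main fit, so the call is not particular to Ifi47. Without 8 h, Iigp1 was called lower (-0.088 per h, adjusted p = 0.025), as were 235 of all genes, against 345 in the main fit.

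The genes of the IFN-γ signal were listed beside the family. Ifng RNA itself stood at 29.7 and 28.5 RPKM in resting cells. In Th0 cultures it was 14.9 RPKM at 4 h, 19.1 at 8 h and 94.5 at 24 h. In Th1 cultures it was 206 at 4 h, 414 at 8 h and 388 at 24 h. In Th2 cultures it stayed between 60.5 and 75.0 RPKM. At 8 h, therefore, the Th0 library had the lowest Ifng value and the highest value of each of the 7 members. Th2 libraries, from medium with IL-4, anti-IL-12 and anti-IFN-γ, had more Ifng RNA than Th0 at 4 and 8 h and less of each member. Over the course Ifng was called higher in Th1 than in Th0 (3.15, adjusted p = 8.68e-06) and lower in Th2 than in Th1 (-2.49, adjusted p = 7.1e-06), and its Th2 minus Th0 difference was 0.66 with an adjusted p of 0.0679.

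Of 12 IFN-γ signal genes, all tested, 4 were called lower in Th2 than in Th0 (1.83% of all genes were). None was called higher, and the median was -0.40. The 4 were Irf1 (-2.20), Tbx21 (-1.78), the factor of Th1 cells, Il12rb2 (-1.27), a chain of the IL-12 receptor, and Ifngr1 (-1.09), a chain of the IFN-γ receptor. Irf1 had a lowest, median and highest of 42.4, 66.5 and 232 RPKM in Th2, against 219, 320.1 and 643 in Th0. Socs1, an inhibitor of IFN-γ signalling that IL-4 and IFN-γ both induce, was not called, with 58.9 to 180 RPKM in Th2 and 53.3 to 159 in Th0. Against Th1, 5 were called lower in Th2 (1.39% of all genes were), and between Th1 and Th0 Ifng alone was called.

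**Figure D4:**
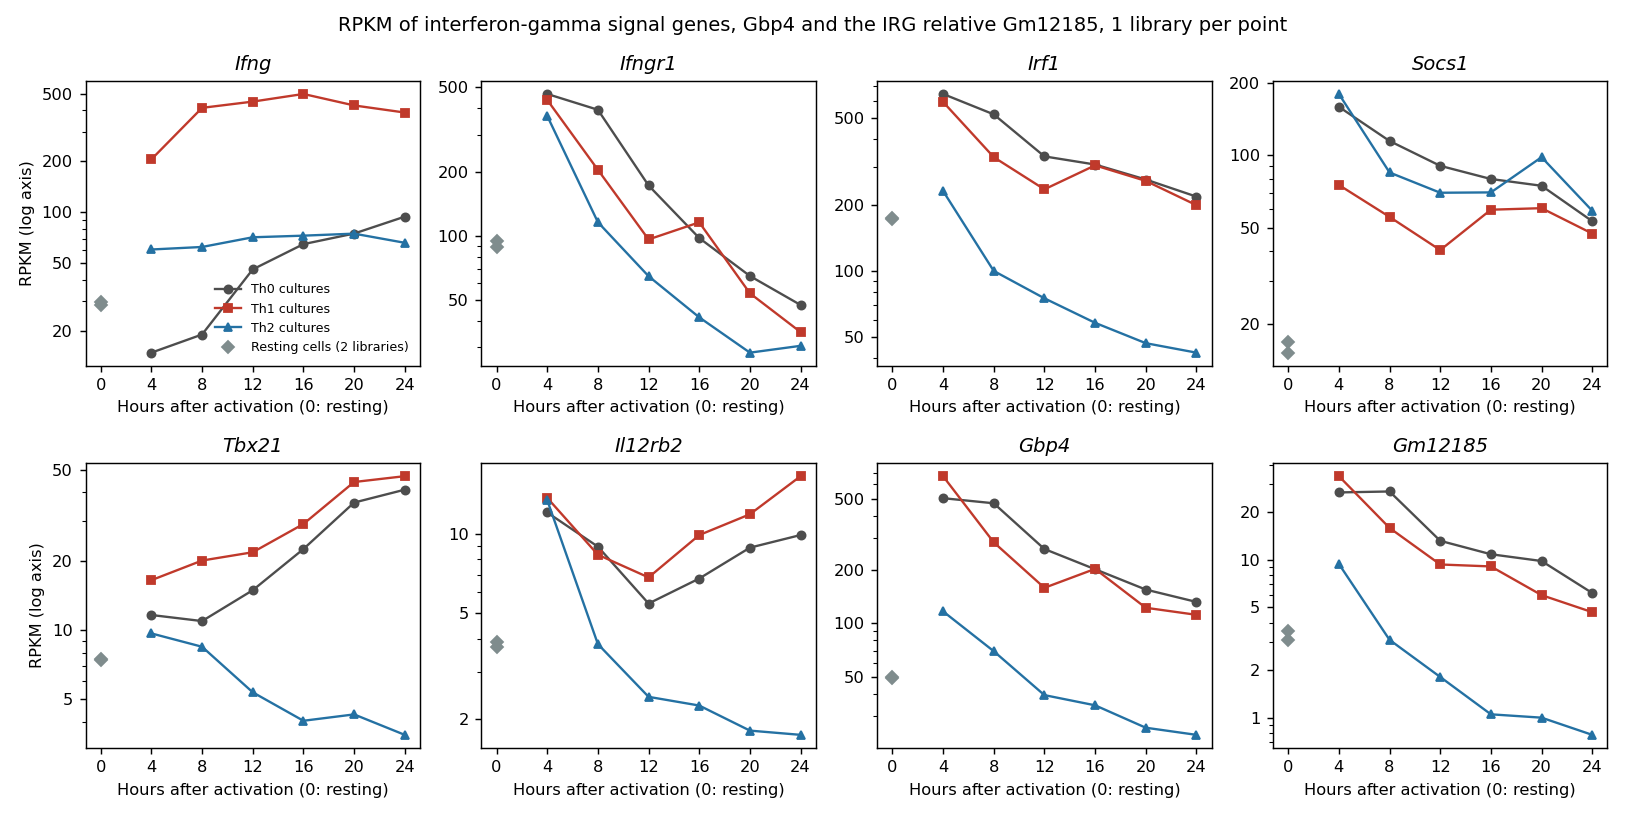
RPKM (log axis) of 6 IFN-γ signal genes, Gbp4 and Gm12185 against hours after activation, with 1 library per point and symbols for the resting, Th0, Th1 and Th2 libraries as in the key of the first panel. Ifng is highest in Th1 at every time point, whereas Irf1, Gbp4 and Gm12185 have a Th2 line under both others at every time point.

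Other families of IFN-induced genes were counted in the same way. Over all genes tested, 1.83% were called lower in Th2 than in Th0. Of 7 guanylate-binding protein genes in the table, which belong to another family of large GTPases that act on vacuoles, 7 were called lower in Th2 than in Th0, with a median of -2.44, and none was called between Th1 and Th0, where all 7 estimates were below 0 with a median of -0.28. Of 10 further IRG genes 7 were tested, and 6 were called lower in Th2 than in Th0. The one not called was Irgq, a distant member of the family, with -0.18. Gm12185, which shares up to 5.64% of 50-base windows with Tgtp1, had 26.7, 13.2 and 6.16 RPKM at 4, 12 and 24 h in Th0 and 9.41, 1.81 and 0.78 in Th2. Of 16 type I IFN antiviral genes 13 were tested between conditions, and 10 were called lower in Th2 than in Th0, with a median of -1.39.

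Against rest the lists had different medians. The type I IFN antiviral list had a median of -1.49 in Th0 cultures against rest, with 3 of 14 called lower (9.17% of all genes were) and none higher, whereas the members had a median of 2.22. The guanylate-binding protein genes had a median of 2.14, with 4 of 7 called higher (3.7% of all genes were). No test of the difference between lists was made. The 10 genes of autophagy conjugation, the machinery that guides IRG proteins to their targets, gave no call between conditions, with medians of -0.01 for Th2 against Th0 and -0.02 for Th1 against Th0.

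The 5 genes with the pattern most like that of the members were taken by Pearson's r with the members' mean log2(RPKM + 0.5) over the 20 time-course libraries, among 10897 genes. They were Gbp4 (r = 0.989), Samhd1 (0.983), Gm43302 (0.979), Gbp3 (0.978) and Gm12185 (0.977). The members' own r with this mean was between 0.963, for Ifi47, and 0.988. The libraries share their cells, time points and normalization, so r is given as a description. Samhd1, which encodes an enzyme that limits the supply of nucleotides, had 222 and 228 RPKM at rest, 1122 in Th0 at 4 h and 110.0 in Th2 at 24 h.

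After transcription was stopped, Ifi47 RNA fell, and no other member was called. Ifi47 had 193, 134, 105 and 68.2 RPKM at 0, 1, 2 and 4 h with actinomycin, lower at each step and, at 4 h, under every library of the time course. Igtp had 152, 151, 169 and 204 RPKM, so that it was higher at the end than at the start. Iigp1 had 37.0, 26.9, 33.0 and 32.1 RPKM, with no order over the hours. RPKM is a share of the library, so each slope is relative to the RNA that remained.

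Tgtp1 had 87.0, 67.8, 78.7 and 58.6 RPKM and Tgtp2 68.9, 51.4, 64.8 and 56.4, both with a dip at 1 h. Irgm1 had 80.4, 65.6, 49.0 and 58.9 RPKM, and Irgm2 16.1, 10.2, 8.78 and 10.6, both lowest at 2 h. In the fit across 10571 genes, Ifi47 was the only member called lower, with a slope of -0.36 ± 0.06 (SE) log2 units per h and an adjusted p of 5.68e-08 by limma, where 5.58% of all genes were called lower. Over 4 h this came to a 2.74-fold fall. With 1 library per time, limma borrowed spread from other genes, and this p value rests on no replicate. The slopes of the other 6 were between -0.12 per h for Tgtp1 and 0.11 ± 0.06 for Igtp (adjusted p = 0.142), and the median of all genes was 0.00.

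In the exact two-sided permutation of the 4 time points, run for each of the 7 members, Ifi47 had p = 0.0417, the smallest that 24 orders can give, and Igtp had p = 0.0833. The other 5 had exact p values from 0.167 to 0.917. These exact p values were not corrected for the 7 members tested. Without the 4 h library Irgm1 was called lower as well (-0.35 per h, adjusted p = 0.0488), and without the 0 h library the slopes of Iigp1, Tgtp2 and Irgm2 turned positive, at 0.07, 0.02 and 0.04 per h.

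The 0 h actinomycin library could be set beside the cultures at 16 h, with no test. All 7 members lay above the Th2 library and under both the Th0 and the Th1 library, as did 8.28% of all genes tested. Igtp, for instance, had 152 RPKM there, against 439.8 in Th0 and 446 in Th1, and the Th2 library had 74.8. The distance to Th0 was 1.82-fold for Ifi47 and 3.58-fold for Irgm2. The macrophage markers summed to 55.8 to 79.5 RPKM in the 4 actinomycin libraries, with Lyz2 alone at 45.9 at 0 h, and their part in these levels was not tested.

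**Figure D5:**
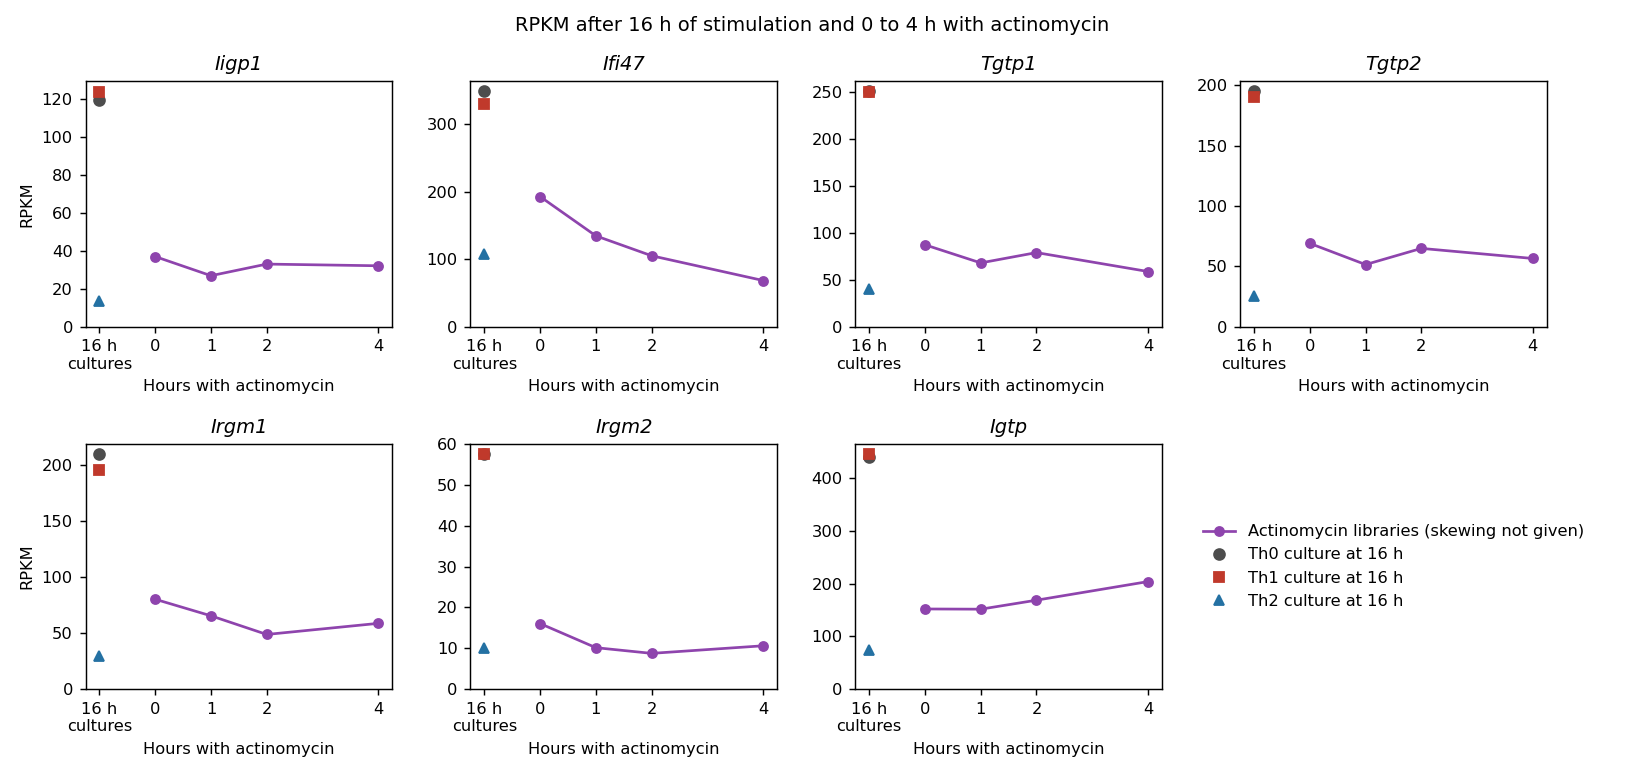
RPKM (linear axis from 0) of each of the 7 genes at 0, 1, 2 and 4 h with actinomycin after 16 h of stimulation (purple, 1 library per point), with the Th0, Th1 and Th2 cultures at 16 h on the left of each panel. Ifi47 falls from 193 to 68.2 RPKM and Igtp goes from 152 to 204, and in every panel the 0 h point lies between the Th2 and the other cultures.

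How reads shared by the near-identical pair Tgtp1 and Tgtp2 were divided is not given, so their ratio may not be that of the genes. As quantified, the pair kept a similar ratio throughout. Tgtp1 was higher than Tgtp2 in all 24 libraries, by 1.04-fold to 1.56-fold. The overlapping pair Igtp and Irgm2 did not: Igtp was 4.44 and 4.89 times Irgm2 at rest, 5.28 times in Th0 at 4 h, 11.01 times in Th0 at 24 h, 10.7 times in Th2 at 24 h and 19.2 times after 4 h with actinomycin. Summed, the 7 members had 407 and 424 RPKM at rest, 3633 in Th0 at 4 h, 4085 in Th1 at 4 h and 268 in Th2 at 20 h, the lowest of the 24 libraries.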

How the data were processed

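RNA of CD4+ T cells was sequenced on an Illumina NextSeq. The authors deposited 1 table of RPKM values per gene symbol, and the submitters' processing notes name BWA and GRCm38. The counting tool, the annotation and the treatment of shared reads are not given in the sources used here. An unnamed entry, at 0 throughout, was left out, and no column was without a sample.

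The 7 genes and the lists (IRG relatives, IFN-γ signal, autophagy conjugation, guanylate-binding proteins, type I IFN antiviral genes, cell type markers) were chosen with earlier results of these data known. A gene of the signal list is not reported here. Named are the 7, list members and the 5 genes most alike in pattern.

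For tests, 0.5 was added to each RPKM before log2, genes with a mean below 1 RPKM were dropped, and limma 3.58.1 (R 4.3.3) was fitted with trend. P values were adjusted by Benjamini-Hochberg over all genes tested. On this scale the change of low genes is understated. Conditions and slopes were compared over the 18 cultures, conditions with the time point as a factor, and rest over the 20 libraries of the time course. Genes were called at an adjusted p under 0.05 and a 2-fold change, over 20 h for slopes and over 4 h for actinomycin. Labels do not say that the resting libraries came from separate animals, so p values measure the spread between libraries, which may be technical. Between conditions, they measure how evenly a difference held over the time points. Against rest, the change over time or the difference between conditions is part of the spread. On simulated data with 200 genes changed by 2 log2 units, 200 were found between Th2 and Th0 and 121 after actinomycin, with 1 and 0 false calls. The most false calls, 11 with 184 found, came in the slopes of Th2 against Th0.

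Mapped reads were recovered from RPKM steps: of 2778 genes with a single transcript, 1629 gave whole reads in all 24 libraries within 0.001. Values of 2 reads (2748) outnumbered those of 1 read (1630), and no member gave whole reads, so no counting interval is given. Promoters came from RefSeq (GRCm38.p6), and gene positions and shared windows from GENCODE on GRCm38. Python 3.11.15 with numpy 2.4.6, pandas 2.3.3, scipy 1.17.1 and matplotlib were used for the rest.

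Alternatives were other pseudocounts (0.1 and 1) and filters (none, or 5 RPKM), other scalings, no trend, no time factor, only the groups compared, 12 to 24 h alone, and each library, culture series or time point left out.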

Additional observations from a re-analysis of the deposited data

Results flagged for a closer look

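A pair of results met the rule that an effect differs between groups by a test of the difference itself. The slope of Irgm1 over time was lower in Th2 than in Th0 cultures by 0.068 log2 units per h (a difference of -0.068), and lower in Th2 than in Th1 cultures, with a difference of -0.072 per h, both by the interaction of condition and time in limma. Both share the Th2 libraries, and both calls were lost when single time points were left out. No group held 4 or more replicate libraries, so no library could be compared with its group for outlying values.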

How the results depend on the processing

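No alternative ended a call of the 7 members in Th2 against Th0 or made one in Th1 against Th0, and of 1155 alternative values of single members 1053 kept their direction and their call. With no time factor 79 genes were called in Th2 against Th0, 103 in Th2 against Th1 and 19 in Th1 against Th0. The calls against rest and the slopes were less stable, and the cause was not tested. Requiring a mean of 5 RPKM gave 803 genes in Th0, 1258 in Th1, 646 at 4 h and 665 after actinomycin. Only 12 to 24 h gave 2686 in Th0, 2901 in Th1, 3406 with 2 members in Th2, and -0.29 for Iigp1 and -0.14 for Igtp there. Median-of-ratios scaling gave 0.0167 for Tgtp1 in Th2 against rest. Without 1 resting library the genes called ranged from 6.1e+02 to 624 in Th0 and from 835 to 900 in Th1, each with 3 members, and from 1400 to 1440 in Th2.

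At 4 h the members called were 1 with no filter, 4 under quantile scaling, 7 with only the groups compared or with condition as a factor, and 0 to 7 when a library or a culture series was left out. At 24 h they were 1 with only the groups compared, 3 with condition as a factor and 0 to 6 by leave-one-out. Leaving out a culture series gave 24 h differences from -0.0589 to 1.29 for Tgtp1, from -0.366 to 1.05 for Tgtp2 and from -0.268 to 0.98 for Irgm2.

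For slopes, no filter gave 202 genes and 0 members against Th0 and 55 and 0 against Th1. Leaving out a time point gave 82 to 1978 genes and 0 to 2 members for Th2 against Th0, 22 to 278 and 0 to 1 for Th2 against Th1 and 0 to 45 genes for Th1 against Th0. Median-of-ratios scaling, upper-quartile scaling and no trend each left 0 members in Th2 against Th1. For Th1 against Th0 the genes were 6 with a pseudocount of 0.1, 1 under median-of-ratios scaling or no trend and 8 under quantile scaling. The slope of Irgm2 in Th2 against Th1 was 0.000508 per h under quantile scaling. With single time points left out, slopes of both signs were seen. Th2 against Th0 gave -0.0731 to 0.00529 per h for Tgtp1, -0.025 to 0.0102 for Irgm2, -0.0362 to 0.000671 for Igtp and -0.0145 to 0.0609 for Ifi47. Ifi47 in Th2 against Th1 gave -0.0215 to 0.00575. Th1 against Th0 gave -0.0256 to 0.045 for Iigp1, -0.0236 to 0.030 for Tgtp1, -0.023 to 0.0347 for Tgtp2, -0.0237 to 0.0255 for Irgm2, -0.00459 to 0.0552 for Ifi47, -0.0108 to 0.0381 for Irgm1 and -0.00762 to 0.0441 for Igtp. After actinomycin, leaving out a library gave 535 to 1007 genes and 1 to 2 members, with slopes from -0.0807 to 0.0694 for Iigp1, from -0.0716 to 0.0241 for Tgtp2 and from -0.418 to 0.0362 for Irgm2.

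No paired analysis by replicate number was possible because such numbers are given for the resting libraries alone. Conditions were matched by time point through the time factor. Depth was no limit for the members, which had at least 165 mapped reads per kilobase.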
